A study of Homo sapiens with 12 samples.

Results

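The genes described here encode 9 spindle pole and microtubule proteins (ASPM, HMMR, NUSAP1, CKAP5, TACC3, SPAG5, CKAP2, CKAP2L and DLGAP5), chosen by gene symbol as a named family. All 9 were among the 14828 genes of the expression table, and all 9 were among the 14624 genes tested. Their mRNA was measured by RNA-seq in 22Rv1, a human prostate carcinoma cell line. The cells stably carried a doxycycline-inducible short hairpin RNA vector, selected with puromycin, that encoded a nontargeting hairpin (shNT, the control) or either of 2 hairpins against CENPA, the centromeric histone H3 variant (shCENPA1 and shCENPA2). All 3 groups received doxycycline at 2 µg/ml for 72 h, so that the agent is shared with the controls, and each group has 2 libraries that were each run in lanes 7 and 8. The mean of both lanes is 1 value, and n = 2 libraries throughout. Whether a line was a single clone, and whether both libraries of a group came from separate cultures, is not given in the sources used here, so the p-values measure only the spread between these libraries.

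During mitosis the spindle separates the chromosomes along microtubules, hollow polymers of alpha- and beta-tubulin that grow and shrink at their plus ends. Proteins such as ASPM and HMMR gather microtubule minus ends into poles, whereas CKAP5, TACC3, SPAG5 and DLGAP5 build or steady the fibres that reach the chromosomes, and NUSAP1 and the CKAP2 pair bundle or nucleate microtubules. Many genes of this kind are known to be transcribed mainly in the G2 and M phases of dividing cells. Part of that timing is known to run through a short promoter element, the cell cycle genes homology region (CHR), often beside CCAAT boxes. In a bulk measurement, fewer cells in a cell cycle phase and less RNA per cell cannot be told apart.

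The start-site windows of the members are shown first because this element is known from genes of the kind. Each window of 300 bases ran from 250 bases before to 50 after the RefSeq transcription start on GRCh38.p14, and all 9 members matched the promoter table. The 6 letters TTTGAA of the CHR were present on either strand in 7 of 9 windows, in all but those of TACC3 and CKAP2. Over the 27305 promoters of the table, which include genes that are not expressed here, 15.4% held the same letters, and over the 10676 promoters matched to tested genes 9.39% did. For each of the 7, the 30 bases around the copy nearest to the start are printed below, 5′ to 3′ on the strand of the gene, with the match in capitals. TTCAAA is the same element on the opposite strand.
ASPM: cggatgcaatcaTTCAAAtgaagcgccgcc
HMMR: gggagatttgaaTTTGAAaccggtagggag
NUSAP1: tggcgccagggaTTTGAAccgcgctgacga
CKAP5: ggcccaagcggtTTCAAAcggcttagagca
SPAG5: gcgcagagcaggTTCAAAcacagacggcgg
CKAP2L: acaggcgcggcgTTTGAAgaaaaactgtca
DLGAP5: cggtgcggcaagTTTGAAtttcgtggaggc

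The first capital lies 113 bases before the start for ASPM, 22 before it for HMMR and 17 before it for CKAP2L. It lies 13 bases after the start for NUSAP1, 17 after it for CKAP5, and 3 after it for SPAG5 and for DLGAP5. The windows are chr1:197146765-197146794, chr5:163460598-163460627, chr15:41332882-41332911, chr11:46846246-46846275, chr17:28599005-28599034, chr2:112764609-112764638 and chr14:55191565-55191594, in the order printed, on the plus strand for HMMR and NUSAP1 and on the minus strand for the others. HMMR carried a second copy directly before the one in capitals, visible in small letters as tttgaa. With DLGAP5 (3 copies), CKAP5 (2) and CKAP2L (2), it is one of 4 members with more than 1 copy, which 2.34% of all promoters and 0.796% of those of tested genes had. CCAAT, searched on both strands, occurred in 6 of 9 windows, in all but those of TACC3, SPAG5 and CKAP2, against 35.7% of all promoters and 36.9% of those of tested genes. Each of these 6 held at least 2 copies, from 2 to 5, against 11.3% and 13.8%. No CCAAT match shared bases with a CHR match, and in HMMR a CCAAT pair on opposite strands overlapped. A match is a description of letters and not a measured binding site.

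**Figure D1:**
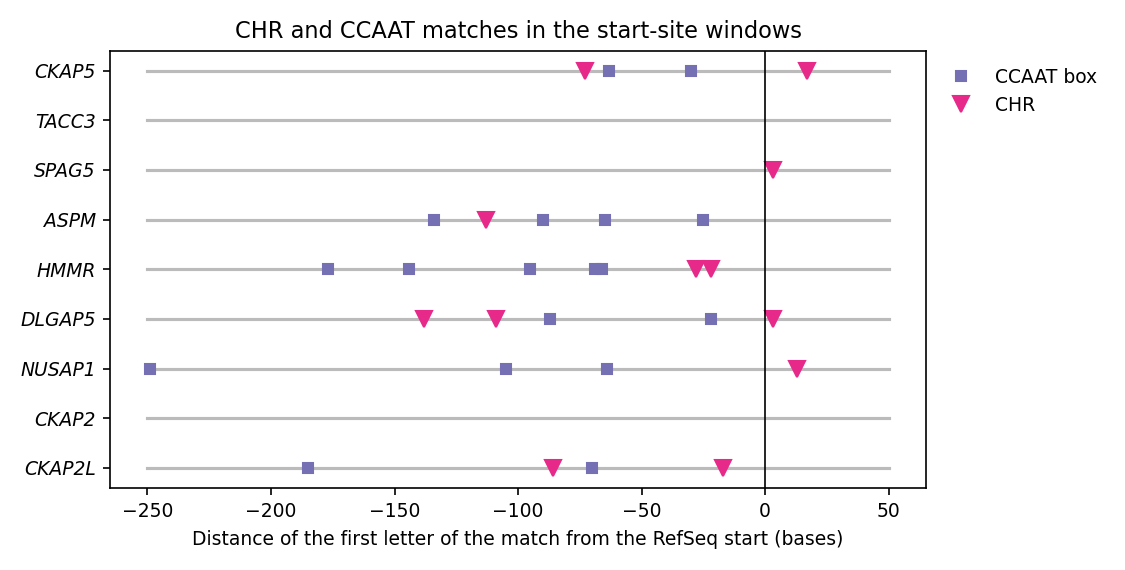
Matches to the CHR (triangles) and the CCAAT box (squares) on either strand in the start-site windows of the 9 members, each a grey line. The horizontal axis gives the distance in bases of the first letter of a match from the RefSeq start (vertical line). CKAP5 holds 2 matches of each kind, and TACC3 and CKAP2 hold neither.

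The hairpins lowered their target. CENPA stood at 5.52 and 4.54 RPKM (reads scaled to gene length and library size) with shNT, at 1.42 and 1.498 with shCENPA1, and at 0.720 and 0.755 with shCENPA2. CENPA mRNA thus fell to 29.1% of the shNT level with shCENPA1 and to 14.7% with shCENPA2 (adjusted p = 0.000287 and 1.13e-05 from limma). Exons of CENPA share 138 bases with SLC35F6 on the same strand. Libraries held 79172294 to 133074655 reads on genes. All 10 luminal prostate markers were in the table, and their summed level was 868 to 909 RPKM with shNT, 819 to 864 with shCENPA1 and 825 to 833 with shCENPA2. Of these 10, 2 fell with shCENPA1, and 6 fell and 1 (HOXB13) rose with shCENPA2, where 4.45% of all genes fell with shCENPA1, and 10.5% fell and 8.05% rose with shCENPA2. With shCENPA2 the 6 became 3 when library 2 of shNT was left out, and 4 when library 1 of shNT or of shCENPA2 was. HOXB13 no longer passed without any one of these 3 libraries, and the 2 with shCENPA1 became 1 without any one library of shNT or shCENPA1. KLK3, an androgen receptor target, was weakly expressed, with 85 to 359 reads per library, and its log2 fold changes were -0.77 and -1.64 (limma adjusted p = 0.0972 and 0.0016). KLK2, another such target, gave -0.47 and -1.05 (adjusted p = 0.25 and 0.0103). Of 14 markers of leukocytes, endothelium, stroma, basal and neuroendocrine cells, 5 were in the table, with a summed level of 25.0 to 26.1, 27.1 to 31.0 and 24.8 to 26.3 RPKM. Most of that sum came from the neuroendocrine gene SYP (4.54 and 4.47 log2 RPKM with shNT), so it does not describe the rest. Of the 5, 2 rose with each hairpin, as given below, where 2.69% and 8.05% of all genes rose. One of these, DCN, was tested only because its knockdown libraries were higher. This count therefore cannot be weighed against those shares. The defining leukocyte marker PTPRC, the endothelial marker PECAM1 and the basal marker KRT5 were not in the table.

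The members were compared with limma on log2 RPKM, with Benjamini-Hochberg adjustment over the 14624 genes tested. The fold needed for a call was 1 on the log2 scale, beside an adjusted p under 0.05, and the words rose and fell are used for an adjusted p under 0.05 whatever the fold. Permuting 4 libraries gives an exact two-sided p of 0.33 at the least for any one gene, so the calls depend on limma's sharing of the spread between genes.

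Spindle genes were lower after CENPA depletion with either hairpin. With shCENPA1, 7 of 9 members were called lower (ASPM, HMMR, NUSAP1, TACC3, SPAG5, CKAP2L and DLGAP5), where 1.83% of all genes tested were. The same 7 of 9 were called lower with shCENPA2, against 4.45% of all genes, and 1.7% of all genes were called lower with both. CKAP2 fell with both hairpins by less than the fold needed for a call, which brings the members that fell to 8 of 9 with each, against 4.45% of all genes with shCENPA1 and 10.5% with shCENPA2. CKAP5 did not pass the test with either. Over the 9 members the median log2 fold change was -1.35 for shCENPA1 and -1.64 for shCENPA2, beside 0.003 and 0.012 over all genes tested. Both comparisons use the same shNT libraries. In all 9 members both libraries of each CENPA hairpin lay below both shNT libraries, which was true of 27.1% of all genes with shCENPA1 and of 31% with shCENPA2.

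**Figure D2:**
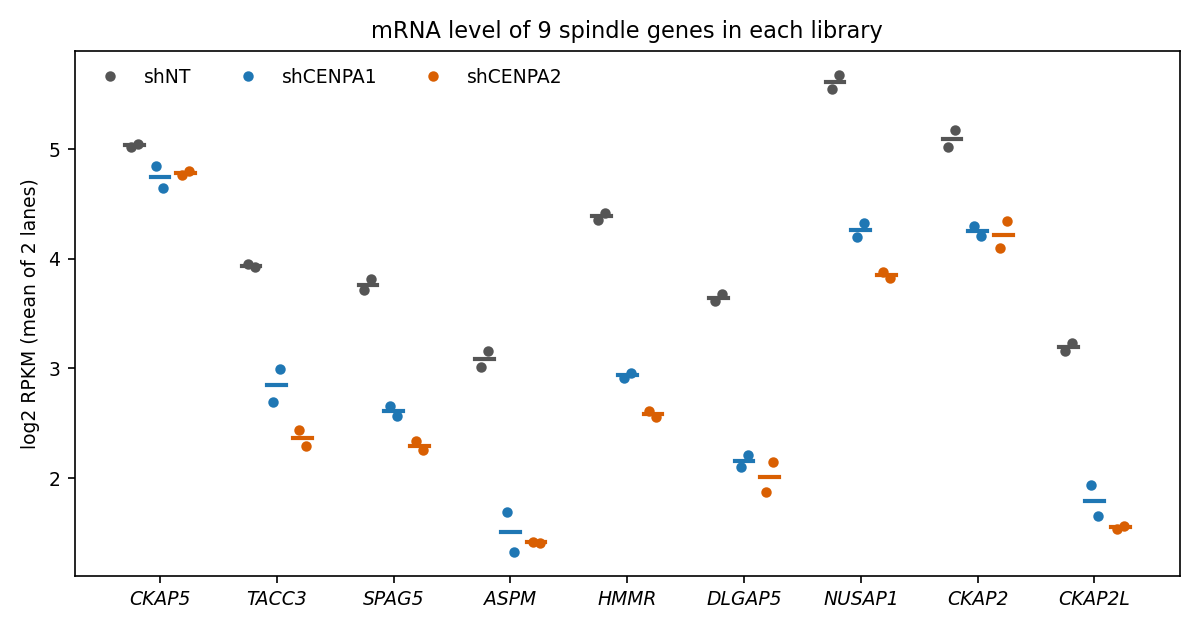
Level of each member as log2 RPKM (vertical axis, mean of 2 lanes) in each library, with shNT in grey, shCENPA1 in blue and shCENPA2 in orange. Points are the 2 libraries of a group and bars their mean. CKAP5 shows the smallest difference, and in all 9 members both libraries of each CENPA hairpin lie below both shNT libraries.

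The pair that builds fibres, CKAP5 and TACC3, had unlike values. CKAP5 (also known as ch-TOG) is a microtubule polymerase that adds tubulin at plus ends, and TACC3 recruits it to the spindle and, with clathrin, links the microtubules of kinetochore fibres. CKAP5 lies on chromosome 11 from 46743048 to 46846308 on the minus strand (GRCh38, GENCODE 44, which also gives the positions below), with 44 exons in its canonical transcript. CKAP5 stood at 32.5 and 33.1 RPKM with shNT, 28.7 and 25.0 with shCENPA1, and 27.1 and 27.8 with shCENPA2. All 4 knockdown libraries were below both shNT libraries, at 81.7% and 83.7% of shNT by the fitted difference. As log2 fold changes these were -0.29 for shCENPA1 (standard error 0.09, 95% interval -0.50 to -0.08, adjusted p = 0.102 from limma) and -0.26 for shCENPA2 (95% interval -0.47 to -0.05, adjusted p = 0.0891). Both intervals stop short of a halving, and the values rest on 19145 to 31841 reads per library. TACC3 (chromosome 4, 1712858 to 1745171, plus strand, 16 exons) stood at 15.5 and 15.2 RPKM with shNT, 6.47 and 7.98 with shCENPA1, and 5.43 and 4.90 with shCENPA2. Its 3 groups did not overlap, and shCENPA2 was lowest. TACC3 fell, with a log2 fold change of -1.09 for shCENPA1 (standard error 0.12, limma adjusted p = 0.00081) and -1.57 for shCENPA2 (adjusted p = 4.43e-05). The shCENPA1 value sat close to the fold needed for a call: without library 1 of shCENPA1 it was -0.94 (adjusted p = 0.0139 from limma). Exons of TACC3 overlap TMEM129 on the opposite strand over 132 bases, and the strand setting of the read counting is not given in the sources used here.

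TACC1 and TACC2, the relatives of TACC3 that are not specific to dividing cells, did not pass the test with either hairpin. TACC1 differed from shNT by -0.24 and -0.06 on the log2 scale (adjusted p = 0.328 and 0.805 from limma), and TACC2 by -0.05 and 0.04 (adjusted p = 0.829 and 0.839). CLASP1 and CLASP2, plus-end proteins with TOG domains like those of CKAP5, gave -0.18 and 0.05, and -0.18 and 0.00, with adjusted p from 0.476 to 0.988. The difference between TACC3 and these relatives was not itself tested.

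At the kinetochore side, SPAG5 (astrin) holds attached kinetochore fibres and keeps chromosomes aligned, and DLGAP5 (HURP) steadies the kinetochore fibres near the chromosomes. SPAG5 (chromosome 17, 28577565 to 28599025, minus strand, 24 exons) stood at 13.1 and 14.04 RPKM with shNT, 6.30 and 5.93 with shCENPA1, and 5.05 and 4.78 with shCENPA2. The groups followed each other without overlap, and SPAG5 fell, with a log2 fold change of -1.15 for shCENPA1 (standard error 0.10, limma adjusted p = 0.000266) and -1.47 for shCENPA2 (adjusted p = 2.52e-05). DLGAP5 (chromosome 14, 55148112 to 55191608, minus strand, 19 exons) stood at 12.2 and 12.8 RPKM with shNT, 4.29 and 4.63 with shCENPA1, and 3.67 and 4.42 with shCENPA2. Both hairpins left DLGAP5 at about the same level, with overlapping libraries, on 1116 to 2176 reads in the knockdown libraries. DLGAP5 fell, with a log2 fold change of -1.49 for shCENPA1 (standard error 0.12, limma adjusted p = 0.000195) and -1.64 for shCENPA2 (adjusted p = 3.58e-05). The exons of SPAG5 share 485 bases with an unnamed protein-coding gene on the same strand and 130 bases with SPAG5-AS1 on the opposite strand, neither of which was tested.

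The pole proteins ASPM and HMMR were among the members with the largest drops. ASPM binds microtubule minus ends at the poles and is the gene most often mutated in primary microcephaly. It spans 197084121 to 197146694 on the minus strand of chromosome 1, with 28 exons and the longest canonical transcript of the 9 (10863 bases). ASPM stood at 8.05 and 8.94 RPKM with shNT, 3.23 and 2.51 with shCENPA1, and 2.68 and 2.66 with shCENPA2. The shCENPA1 libraries were farther apart than any other pair among the members (0.37 apart in log2 RPKM), and the shCENPA2 libraries lay between them. ASPM fell, with a log2 fold change of -1.57 for shCENPA1 (standard error 0.15, limma adjusted p = 0.000301) and -1.67 for shCENPA2 (adjusted p = 7.8e-05), to 33.6% and 31.4% of shNT. HMMR (RHAMM), first known as a hyaluronan receptor, places the Aurora A activator TPX2 at the poles. HMMR (chromosome 5, 163460203 to 163491941, plus strand, 18 exons) stood at 20.5 and 21.3 RPKM with shNT, 7.55 and 7.77 with shCENPA1, and 6.13 and 5.90 with shCENPA2. Libraries of a group differed little and the groups stood apart. HMMR fell, with a log2 fold change of -1.45 for shCENPA1 (standard error 0.09, limma adjusted p = 7.65e-05) and -1.80 for shCENPA2 (adjusted p = 6.3e-06), the largest change of a member with that hairpin. Exons of HMMR share 113 bases with HMMR-AS1 on the opposite strand, which was not tested.

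NUSAP1 bundles microtubules around the chromosomes and had the highest RPKM of the members with shNT. Its gene lies on chromosome 15 from 41320794 to 41381050 on the plus strand, with 11 exons. The RefSeq start used for its window (chr15:41332882-41332911) lies inside this span and not at its first base. For other members too, the RefSeq and GENCODE starts need not be the same base. NUSAP1 stood at 46.9 and 51.2 RPKM with shNT, 18.4 and 20.03 with shCENPA1, and 14.7 and 14.2 with shCENPA2. No library of one group reached into another, and NUSAP1 fell, with a log2 fold change of -1.35 for shCENPA1 (standard error 0.09, limma adjusted p = 9.21e-05) and -1.76 for shCENPA2 (adjusted p = 6.3e-06). Its exons share 352 bases with OIP5 on the opposite strand and 195 bases with OIP5-AS1 on the same strand, both tested genes, and 2938 bases with an unnamed protein-coding gene on the same strand that was not tested.

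CKAP2 and CKAP2L are paralogs that promote microtubule nucleation and spindle organization, and their values differed in size. CKAP2 (chromosome 13, 52455429 to 52476628, plus strand, 9 exons) stood at 32.3 and 36.0 RPKM with shNT, 19.6 and 18.5 with shCENPA1, and 17.1 and 20.3 with shCENPA2. The knockdown libraries of both hairpins overlapped each other and were below shNT, at 55.9% and 54.7%. CKAP2 fell, with a log2 fold change of -0.84 for shCENPA1 (standard error 0.11, 95% interval -1.08 to -0.60, limma adjusted p = 0.00159) and -0.87 for shCENPA2 (95% interval -1.11 to -0.63, adjusted p = 0.000557). CKAP2L (chromosome 2, 112736349 to 112764664, minus strand, 9 exons) stood at 8.94 and 9.42 RPKM with shNT, 3.83 and 3.15 with shCENPA1, and 2.90 and 2.96 with shCENPA2. Its groups did not overlap, and it reached 37.8% and 31.9% of shNT. CKAP2L fell, with a log2 fold change of -1.40 for shCENPA1 (standard error 0.13, 95% interval -1.69 to -1.11, limma adjusted p = 0.000296) and -1.65 for shCENPA2 (95% interval -1.94 to -1.36, adjusted p = 4.43e-05). The intervals of the paralogs did not overlap with either hairpin, and the difference of their changes was not tested. Exons of CKAP2L share 475 bases with NT5DC4 on the opposite strand, which was not tested.

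**Figure D3:**
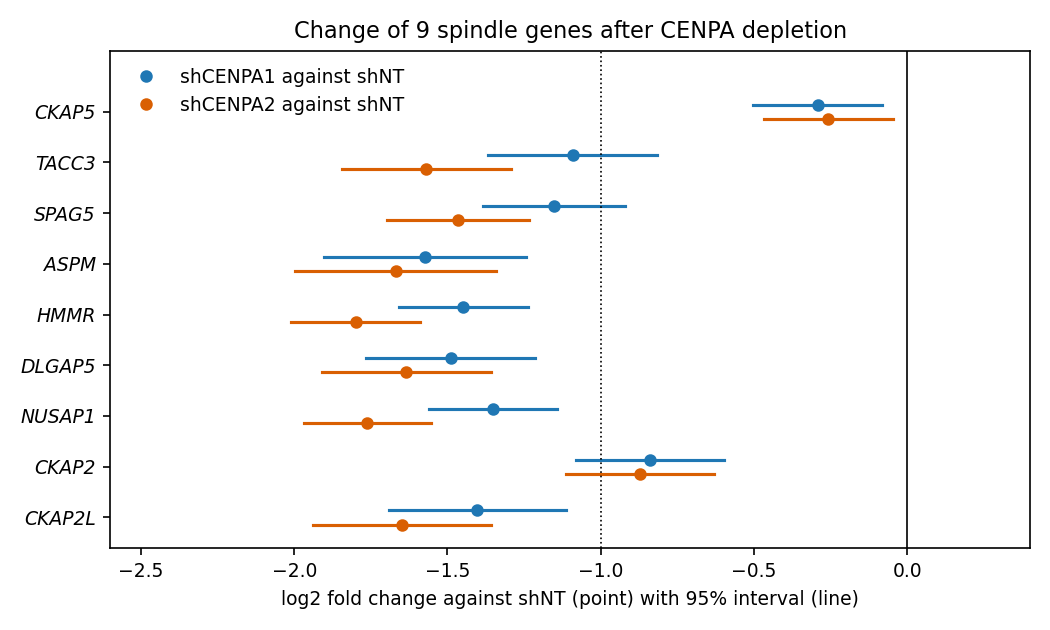
Log2 fold change against shNT (horizontal axis) of each member with shCENPA1 (blue) and shCENPA2 (orange). Points are fitted differences from limma, lines their 95% intervals, and the dotted line marks the fold needed for a call. CKAP5 (-0.29 and -0.26) and CKAP2 (-0.84 and -0.87) stand right of the dotted line with both hairpins.

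The order of the levels changed with CENPA depletion only among NUSAP1, CKAP2 and CKAP5, the highest members in each group. RPKM is scaled to gene length, and the lengths used are not given in the sources used here. The order between genes depends on those lengths, which were not those of the canonical transcripts. In library 1 of shNT, TACC3 stood at 15.5 RPKM on 10924 reads and HMMR at 20.5 RPKM on 8938 reads. Their canonical transcripts have 2799 and 3016 bases. With shNT the members ran, by mean log2 RPKM, from NUSAP1 (5.61) through CKAP2 (5.09), CKAP5 (5.04), HMMR (4.39), TACC3 (3.94), SPAG5 (3.76), DLGAP5 (3.65) and CKAP2L (3.20) to ASPM (3.08). Among neighbours in this order, the libraries of CKAP2 and CKAP5 overlapped, those of CKAP2L (lower library 8.944 RPKM) and ASPM (higher library 8.937 RPKM) nearly met, and the rest stood apart. With shCENPA1 CKAP5 was highest (4.74), ahead of NUSAP1 (4.26) and CKAP2 (4.25), whose libraries overlapped, as did those of HMMR and TACC3 and of CKAP2L and ASPM. With shCENPA2 the order began with CKAP5 (4.78), CKAP2 (4.22) and NUSAP1 (3.85), and only the libraries of TACC3 and SPAG5 overlapped among neighbours. From HMMR through TACC3, SPAG5, DLGAP5 and CKAP2L to ASPM, the order was the same in all 3 groups.

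Between libraries of one group the members differed by a median of 0.086 on the log2 scale, and between lanes of one library by a median of 0.035. In 8 of 9 members library 2 of shNT was the higher of the shNT pair. In each CENPA hairpin group library 2 was higher for 4 of 9. The same shares over all genes are not given here, so these counts cannot be read as particular to the members.

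The hairpins were then compared with each other, since CENPA itself was lower with shCENPA2 (difference -0.98 on the log2 scale, adjusted p = 0.0209 from limma). By limma, 0 of 9 members were called between them, against 0.732% of all genes, and 0 of 9 had an adjusted p under 0.05, where 1.03% of all genes did with the lower value in shCENPA2 and 0.39% with the higher. Calls with the lower value in shCENPA2 made up 0.554% of all genes. An unadjusted p under 0.05 was found for 4 of 9, against 13.3% of all genes, and 0 of 9 were called with limma's voom on recovered reads. For NUSAP1 the difference was -0.41 (95% interval -0.62 to -0.20, adjusted p = 0.0756 from limma), for TACC3 -0.48 (-0.75 to -0.20, 0.115), for HMMR -0.35 (-0.56 to -0.14, 0.129) and for SPAG5 -0.32 (-0.55 to -0.08, 0.217). The remaining 5 members had intervals that include 0. These were -0.54 to 0.04 for CKAP2L, -0.42 to 0.13 for DLGAP5, -0.42 to 0.23 for ASPM, -0.27 to 0.21 for CKAP2 and -0.18 to 0.25 for CKAP5. Both shCENPA2 libraries lay below both shCENPA1 libraries in 5 of 9 members (HMMR, NUSAP1, TACC3, SPAG5 and CKAP2L), against 20.2% of all genes. The members' median difference was -0.25, beside -0.003 for all genes tested.

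Among other spindle and microtubule genes, most of those that fell were on the lists of spindle assembly partners and regulators or of mitotic kinesins. The first of these lists also holds genes of cytokinesis and of cell cycle control, so its counts are not of spindle assembly alone. Of all genes tested, 2.65% were called in either direction with shCENPA1 and 6.13% with shCENPA2, 4.45% and 10.5% fell, and 2.69% and 8.05% rose. Of 21 spindle assembly partners and regulators, 12 fell with shCENPA1 (8 called) and 14 with shCENPA2 (11 called), and 0 rose. With 1 added to the RPKM, 6 and 8 were called. The medians of the 21 were -0.72 and -1.02 on the log2 scale. Those with the lowest mean change were CEP55, which acts later, in the final cut between daughter cells (-1.69 and -1.68, adjusted p = 6.7e-05 and 1.56e-05 from limma), and TPX2 (-1.18 and -1.64, adjusted p = 9.98e-05 and 6.3e-06). The highest was NUMA1, which focuses microtubules at the poles in mitosis and is a nuclear protein in interphase, at 0.14 and 0.09 (adjusted p = 0.438 and 0.55). Of 14 mitotic kinesins, the motors of the spindle, 12 fell with shCENPA1 (11 called) and 13 with shCENPA2 (12 called), with medians of -1.16 and -1.54 (with 1 added to the RPKM, 5 and 9 were called). Of 16 centriole duplication genes, 5 and 7 fell, with medians of -0.43 and -0.31. With each hairpin 3 were called (with 1 added to the RPKM, 0 and 1 were called). With shCENPA1 the 5 became 3 when library 1 of shCENPA1 was left out and 2 when library 2 of shCENPA1 or of shNT was, and with shCENPA2 the 7 became 3 without library 2 of shNT. The 3 called with shCENPA1 became 1 without library 2 of shCENPA1 or library 2 of shNT.

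The complexes that nucleate spindle microtubules are the gamma-tubulin ring complex and augmin. In the gamma-tubulin ring complex, the template of new microtubules, 0 of 11 fell with shCENPA1 and 1 of 11 with shCENPA2, MZT1, at -0.29 and -0.67 (adjusted p = 0.321 and 0.0161 from limma). Both counts are near or below the shares of all genes that fell, 4.45% and 10.5%, and without library 2 of shCENPA2 2 fell with shCENPA2. TUBGCP3 gave -0.29 and -0.33 and TUBG2 0.33 and 0.17, none past the test. The medians of the 11 ring genes were -0.10 and -0.22 on the log2 scale, beside 0.003 and 0.012 over all genes tested. Of 8 subunits of augmin, which branches new microtubules from existing ones, 7 were in the table, of which 1 fell with shCENPA1 and 5 with shCENPA2, 0 of them called. With shCENPA2 the 5 became 1 without library 1 and 2 without library 2 of shNT. With shCENPA1 the 1 became 0 without library 1 of shCENPA1 or either library of shNT, and 3 without either library of shCENPA2. HAUS1 fell (log2 fold changes -0.55 and -0.78, adjusted p = 0.0166 and 0.00116 from limma), and HAUS8 gave -0.37 and -0.84 (adjusted p = 0.217 and 0.00661). HAUS4 gave -0.25 and -0.29, not past the test with either hairpin. All 7 augmin genes had values below 0 with each hairpin, with medians of -0.37 and -0.47.

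Of 11 alpha- and beta-tubulins, 2 fell and 1 rose with shCENPA1, and 2 fell and 2 rose with shCENPA2. Their medians were 0.03 and -0.22 on the log2 scale. With shCENPA1 0 fell without any one library of shNT or shCENPA1, and 0 rose without either library of shCENPA1 or library 2 of shNT. With shCENPA2 1 fell without library 1 of shNT or library 2 of shCENPA2, 0 rose without library 2 of shNT, and 1 rose without library 1 of shNT or either library of shCENPA2. Tubulin genes are close copies of each other, so reads may be split between them and single values are uncertain. TUBA1B fell (log2 fold changes -0.58 and -0.91, adjusted p = 0.0212 and 0.000951 from limma), and so did TUBB (-0.47 and -0.52, adjusted p = 0.0451 and 0.0146). TUBB4A, a beta-tubulin of nervous tissue, rose by 1.24 and 1.02 (adjusted p = 0.0138 and 0.0164), on 84 to 346 reads per library. Of 28 general microtubule-associated proteins, 3 fell and 2 rose with shCENPA1, and 4 fell and 3 rose with shCENPA2, with medians of -0.07 and 0.02, against 4.45% and 10.5% of all genes that fell. Of these, 2 fell with shCENPA1 without either library of shNT or library 2 of shCENPA1, and 2 fell with shCENPA2 without library 2 of shNT or library 1 of shCENPA2. With shCENPA1 0 rose without either library of shNT and 1 without either library of shCENPA1, and with shCENPA2 the 3 became 2 without any one library other than library 2 of shCENPA2. The lowest mean changes were those of 2 genes. GPSM2 (LGN), which orients the spindle, fell (log2 fold changes -1.08 and -1.31, adjusted p = 0.00106 and 0.000149 from limma), and STMN1 (stathmin), which binds free tubulin, fell (log2 fold changes -0.95 and -1.36, adjusted p = 0.000895 and 4.87e-05). MAP1B, a microtubule-associated protein of neurons, rose by 0.59 and 0.89 (adjusted p = 0.0331 and 0.00205). Among the markers of other cell types, the neuroendocrine gene CHGA rose by 2.06 and 1.76 (adjusted p = 0.000968 and 0.00102 from limma) on 57 to 348 reads. The stromal gene DCN, named here after its values were seen, rose by 1.93 and 1.48 (adjusted p = 0.00271 and 0.0053 from limma). DCN rested on 119 to 647 reads per library. Its shNT mean was -3.05 log2 RPKM, below the mean of -3 needed for testing, so it was tested only because its knockdown libraries were higher. DCN did not pass with shCENPA1 when library 2 of shCENPA1 was left out. SYP gave 0.14 and -0.03 and ACTA2 -0.12 and -0.48, none past the test. The part of these genes in the changes of the members was not tested.

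**Figure D4:**
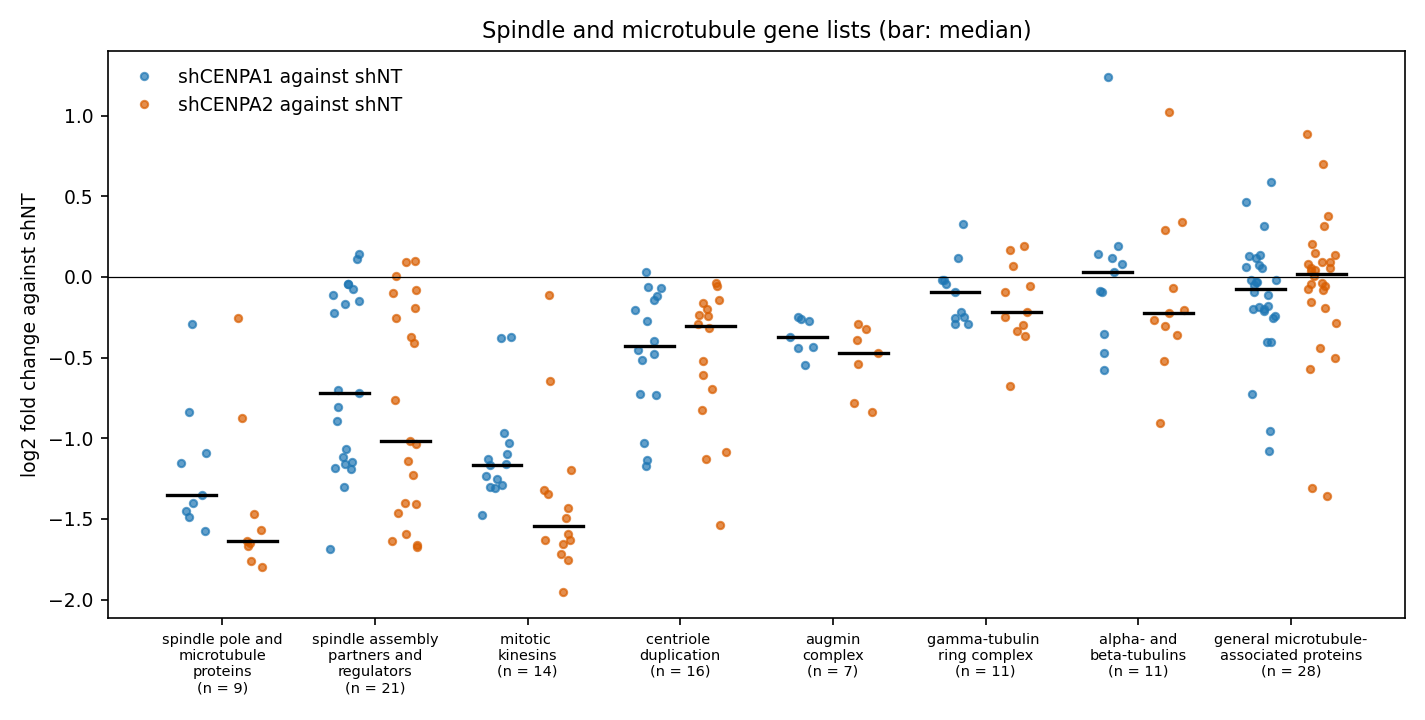
Log2 fold change against shNT (vertical axis) of every tested gene in the 9 members and in 7 lists of other spindle and microtubule genes, with shCENPA1 in blue and shCENPA2 in orange. Points are genes and bars list medians. The members, the mitotic kinesins and many spindle assembly partners lie well below 0. General microtubule-associated proteins lie around 0, and the tubulins have medians of 0.03 with shCENPA1 and -0.22 with shCENPA2.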

How the data were processed

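RNA was sequenced from 6 libraries of 22Rv1 cells in 12 runs, as strand-specific mRNA libraries. The authors trimmed reads with Trim Galore, aligned them to hg38 with STAR, quantified genes with HTSeq and deposited, per run, log2 RPKM made with a prior count of 0.25 reads. Their versions are not given in the sources used here. Both lanes of a library were averaged, since the chi-square per gene between lanes was 1.24 to 1.31, against 26.5 to 80.1 between libraries. The fit used limma 3.58.1 (lmFit, eBayes with trend; R 4.3.3) on genes whose mean log2 RPKM reached -3, with 3 groups in one fit, no covariate and 95% intervals. The fit was tested on simulated data. The prior count shrinks fold changes at low expression.

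The spacing of the deposited log2 values gave back whole reads for 14828 of 14828 genes (largest distance from a whole read 3.6e-08) which served for depth and a fit with limma's voom.

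Members and lists were chosen with earlier results of these data known. Named beside the members are CENPA, 4 paralogs, and in each list up to 2 genes with the lowest and 1 with the highest mean change. Alternatives covered lanes, runs as samples, a replicate block, filters, constants added to RPKM, scaling, the samples fitted, the variance model, voom and each library left out.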

Additional observations from a re-analysis of the deposited data

Results flagged for a closer look

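A difference between the CENPA hairpins was found for 2 of the genes named in the text, and for 0 of 9 members. The named genes are only part of the lists. By limma, 2 of 21 spindle assembly partners and regulators, TPX2 among them, had an adjusted p under 0.05 with the lower value in shCENPA2. So had 1 of 14 mitotic kinesins and 1 of 10 luminal prostate markers, against 1.03% of all genes. CENPA was lower with shCENPA2 than with shCENPA1, with a difference of -0.98 on the log2 scale (adjusted p = 0.0209 from limma, both shCENPA2 libraries below both shCENPA1 libraries). Over the alternatives its adjusted p ran from 0.0185 to 0.212, the highest without library 2 of shCENPA1, and it was 0.0778 with limma's voom on recovered reads. TPX2, the Aurora A activator that HMMR places at the poles, was lower with shCENPA2 by a difference of -0.46 (adjusted p = 0.0348 from limma), after falling with both hairpins against shNT. Under 20 alternatives TPX2 ran from -0.47 to -0.43, with an adjusted p under 0.05 in 11 of them and up to 0.214, and with the replicate block it was 0.0692.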

How the results depend on the processing

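Under 21 alternatives, the count of members called lower was 6 to 8 of 9 with shCENPA1, 7 to 8 of 9 with shCENPA2, and 0 of 9 between the hairpins. The 8 arose with no fold required, which adds CKAP2. The 6 arose from TACC3 with shCENPA1, which missed the fold when 1 was added to the RPKM (-0.99, adjusted p = 0.000696 from limma) or library 1 of shCENPA1 was left out (-0.94). CKAP5 passed an adjusted p of 0.05 with runs as samples (0.00708 and 0.00834) and, for shCENPA2, without library 2 of shCENPA1 (0.0499), and otherwise its adjusted p reached 0.579 and 0.415. Runs as samples also took 3 members past 0.05 between the hairpins, NUSAP1 (0.00828), TACC3 (0.0206) and SPAG5 (0.0398). With each library left out in turn, 3 differences between the hairpins changed sign, with ranges of -0.28 to 0.087 for ASPM, -0.064 to 0.13 for CKAP5 and -0.15 to 0.089 for CKAP2. None of these is past the test. A lone library is assumed to vary like the other groups.

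Over all genes, called counts moved by more than 1.5 times when 1 was added to the RPKM (388 to 119 with shCENPA1, 897 to 317 with shCENPA2, 107 to 17 between the hairpins), with the expression filter raised to a log2 RPKM of 0 (897 to 529, 107 to 53), and without library 2 of shCENPA1 (388 to 252, 107 to 22), library 1 of shCENPA1 (107 to 42) or library 1 of shCENPA2 (107 to 224). With no fold required, 1044, 2712 and 208 genes passed. The replicate block by library number gave 7, 7 and 0 members called (383, 891 and 95 genes). Deviations of same-numbered libraries correlated at -0.064, -0.095 and -0.145, and the numbers were not taken to pair the libraries. A replicate block with the shCENPA1 numbers crossed, added after seeing the data, gave 7, 7 and 0 members (389, 894 and 105 genes). For the lists, the alternatives gave 11 to 13 and 12 to 16 spindle assembly partners that fell, 11 to 13 and 12 to 13 mitotic kinesins, 0 to 3 and 1 to 5 augmin subunits, 2 to 8 and 3 to 7 centriole duplication genes, 0 to 2 and 1 to 3 tubulins, 0 and 0 to 4 gamma-tubulin ring genes, and 2 to 4 and 2 to 6 general microtubule-associated proteins. Of the named list genes, TUBB, TUBA1B, HAUS1 and MAP1B with shCENPA1 kept an adjusted p under 0.05 in 14, 15, 16 and 16 of 20 alternatives, and TUBB4A in 14 of 19. The values of the members rest on 1116 to 31841 reads and on 2 libraries per group, which limits the precision.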
